A study of Mus musculus with 4 samples.

Results

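Dusp1, Dusp2, Dusp4, Dusp5, Dusp6, Dusp10, Spry1, Spry2 and Spred1 are 9 genes whose products hold back MAP kinase signaling. They were chosen by symbol from the 32285 genes listed in both gene expression tables, and each symbol matched 1 row. Their UMIs, each of which stands for 1 captured RNA molecule, were read in 4 kinds of cells from B16 melanomas of WT and VISTA-KO mice.

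When a T cell receptor or growth factor receptor is engaged, Ras and a chain of kinases activate ERK, and parallel chains activate JNK and p38. Dual-specificity phosphatases of the DUSP family take the activating phosphates off these MAP kinases. Sprouty and Spred proteins act upstream and dampen the activation of Ras and Raf. Many of these genes are themselves transcribed when ERK is active, so that the family forms a negative feedback loop and is often read as a trace of recent signaling.

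Both libraries came from C57BL/6 mice whose Vsir gene, which encodes the inhibitory receptor VISTA, is flanked by loxP sites. The WT mice (Vsir fl/fl) carried no Cre, and their VISTA-KO littermates (Vsir fl/fl CD4cre) carried a Cre recombinase driven by the Cd4 promoter, which acts in T cells during thymic development. The methods give an age of 6 to 8 weeks for C57BL/6 mice inoculated with these tumors, and no separate age for these genotypes. All mice received the same treatment. It was a TRP2 peptide vaccine with CpG and R848 on day 3 and CTLA-4 antibody, 100 µg, on days 4 and 8. CD4+ and CD8+ cells were sorted on day 18 after treatment from tumors of 5 to 6 mice pooled per genotype by the methods, while the figure legend gives 6 to 8 tumors. Each genotype is therefore 1 pool and 1 gene expression library with a paired receptor library, the spread between mice is unknown, and no difference was tested. All intervals given are exact 95% intervals that cover counting error only.

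The WT and VISTA-KO tables held 10337 and 10085 barcodes with 72098984 and 59916814 UMIs. With at least 600 genes and under 30% mitochondrial UMIs, 10224 and 9946 cells remained, at a median of 4723 and 4670.5 UMIs, and 144 barcodes occurred in both libraries. CD8 cells, with a UMI of Cd8a or Cd8b1 and none of Cd4, numbered 5549 in WT and 4350 in VISTA-KO. Conventional CD4 cells, with Cd4 and no Foxp3 UMI, numbered 1768 and 3048. Regulatory cells, with both Cd4 and Foxp3 UMIs, numbered 1528 and 1270, and cells with 2 or more Siglech UMIs 221 and 138. Levels are given as CPM, the UMIs of a gene per 1000000 UMIs of that kind of cell. Fewer expressing cells and less RNA per cell cannot be told apart in such a sum. Vsir itself stood at 112 CPM in WT against 113 CPM in VISTA-KO over all cells, and whether the counted reads lie in the deleted exons is not given in the sources used here, so it gives no check of the deletion.

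The gates were not clean in the same way in both libraries. The summed level of 4 T cell markers (Cd3d, Cd3e, Cd3g and Trac) lay between 3985 and 4654 CPM in the 3 T cell kinds of both libraries. In Siglech cells it was 1260 (WT) and 631 CPM (VISTA-KO), while 7 markers that Siglech cells should hold (Siglech, Bst2, Ccr9, Tcf4, Irf8, Runx2 and Cox6a2), all genes of plasmacytoid dendritic cells, summed to 10757 and 12385 CPM. Of the Siglech cells, 211 of 221 in WT and 124 of 138 in VISTA-KO also met a T cell gate. Siglech cell markers summed to 1630 CPM in WT against 905 CPM in VISTA-KO conventional CD4 cells. Cd8a and Cd8b1 summed to 897 against 457 CPM there and to 857 against 389 CPM in regulatory cells, and WT regulatory cells were deeper, at a median of 8838.5 against 5939 UMIs. Melanoma transcripts, 4 markers none of which was at 0 in any of these kinds, summed to 10.2 CPM in WT against 194 CPM in VISTA-KO CD8 cells, to 204 and 15.7 CPM in conventional CD4 cells, and to 5.57 and 189 CPM in regulatory cells. Values with stricter gates are given where they end a count or move a ratio between the libraries by over 1.5 times for genes above 20 CPM, and for each comparison with CD8 cells.

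MAP kinase and calcium signals reach transcription through short sequence motifs near gene starts. Promoters of 8 of the 9 genes, all but Dusp4, were found in the RefSeq table (GRCm38.p6). The 250 bases before each start were searched on both strands for 8 motifs. The 3 sequences printed here are those of Dusp5, the member past a log2 ratio of 0.5 between the libraries in all 4 kinds of cells, of Nr4a1, the gene whose levels followed Dusp5 most closely, and of Dusp1. Capitals mark CArG boxes, which serum response factor binds, and the core of the cyclic AMP response element, TGACG or its reverse complement. The Dusp5 sequence lies at chr19:53528895-53529144 on the plus strand, that of Nr4a1 at chr15:101266596-101266845 on the plus strand and that of Dusp1 at chr17:26508473-26508722 on the minus strand.
Dusp5: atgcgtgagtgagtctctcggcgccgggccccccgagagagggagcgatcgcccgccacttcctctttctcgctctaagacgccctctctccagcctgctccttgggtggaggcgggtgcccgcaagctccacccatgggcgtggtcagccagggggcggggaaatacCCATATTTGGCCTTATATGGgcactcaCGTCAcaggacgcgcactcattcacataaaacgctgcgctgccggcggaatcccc
Nr4a1: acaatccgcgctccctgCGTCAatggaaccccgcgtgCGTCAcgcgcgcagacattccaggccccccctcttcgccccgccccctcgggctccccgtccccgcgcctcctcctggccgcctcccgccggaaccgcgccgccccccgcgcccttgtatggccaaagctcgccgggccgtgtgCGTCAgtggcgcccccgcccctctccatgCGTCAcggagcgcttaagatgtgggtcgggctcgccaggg
Dusp1: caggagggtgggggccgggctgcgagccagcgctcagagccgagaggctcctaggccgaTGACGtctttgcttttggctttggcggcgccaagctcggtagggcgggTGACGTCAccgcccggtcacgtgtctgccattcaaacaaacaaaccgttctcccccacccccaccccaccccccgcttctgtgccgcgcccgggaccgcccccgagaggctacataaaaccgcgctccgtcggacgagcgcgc

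Dusp5 held 2 CArG boxes next to each other, 82 to 73 and 72 to 63 bases before the start, and 1 TGACG site. A CArG box stood in 1.47% of the 32851 promoters of the same length, and 2 or more in 6 of them. Dusp1 held 3 TGACG sites, of which 2 overlap in a full element TGACGTCA 143 to 136 bases before the start, a sequence found in 1.55% of promoters. Nr4a1, which is not a member, held 4 TGACG sites and no CArG box of the pattern searched. That pattern was CC, then 6 bases that are each A or T, then GG, and sites that differ from it were not counted. TGACG alone stood in 17.8% of promoters. The other 6 promoters (Dusp2, Dusp6, Dusp10, Spry1, Spry2 and Spred1) held neither TGACG nor a CArG box in this window. None of the 8 members searched held the AP-1 site TGANTCA (6.75% of promoters) or the EGR site GCGTGGGCG (0.536%). The NFAT-type core GGAAA stood in the promoters of Dusp5, Dusp6, Spry2 and Spred1 and in 55.6% of all promoters, the E-box CACGTG in those of Dusp1 and Dusp2 (6.02%), and an NF-kB site in those of Dusp2 and Dusp5 (11.9%).

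Dusp5 was higher in the VISTA-KO library in every kind of cell. Its product is a nuclear phosphatase that acts on ERK, and the gene (ENSMUSG00000034765) spans chr19:53529145-53541809. In CD8 cells Dusp5 stood at 243 CPM in WT against 419 CPM in VISTA-KO (ratio 1.72, 1.68 to 1.77). Conventional CD4 cells held 276 and 647 CPM, a ratio of 2.34 (2.25 to 2.44). Regulatory cells held 260 and 598 CPM, a ratio of 2.30 (2.21 to 2.39). Siglech cells held 212 and 372 CPM, a ratio of 1.75 (1.55 to 1.98). All 4 VISTA-KO levels lay above all 4 WT levels, so that the lowest VISTA-KO level, in Siglech cells, exceeded the highest WT level, in conventional CD4 cells. Within WT, regulatory and conventional CD4 cells could not be ordered, since their intervals overlapped.

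Both the share of cells with Dusp5 and the number of its UMIs per such cell were larger in VISTA-KO T cells. Thinned to 2000 UMIs per cell, with shallower cells set aside, 34.9% of WT and 48.5% of VISTA-KO CD8 cells held a Dusp5 UMI, against 58.7% and 71.9% without thinning. Among conventional CD4 cells the thinned shares were 35.8% and 58.1%, among regulatory cells 41.1% and 63.7%, and among Siglech cells 26.4% and 44.5%. After thinning, cells with a Dusp5 UMI held on average 1.49 of them in WT and 1.90 in VISTA-KO among CD8 cells, 1.70 and 2.38 among conventional CD4 cells, and 1.46 and 2.03 among regulatory cells. In Siglech cells these averages were 1.41 and 1.51. None of the 4 kinds is known to lack Dusp5, so these shares have no background level measured in the same libraries.

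Dusp5 stayed past a log2 ratio of 0.5 without the doubtful cells. With Foxp3 UMIs barred from CD8 cells, Cd8a and Cd8b1 UMIs from the other T cell kinds and Cd3e UMIs from Siglech cells, the ratios were 1.72 in CD8, 2.53 in conventional CD4, 2.28 in regulatory and 1.61 (1.36 to 1.92) in Siglech cells. The last of these rests on 146 WT and 103 VISTA-KO cells at 206 and 332 CPM. A further alternative, chosen after the data had been seen, kept these gates and also removed likely doublets. T cells with 2 or more Siglech UMIs or any UMI of the myeloid or melanoma markers were left out too. The ratio was then 1.79 in CD8, 2.45 in conventional CD4 and 2.26 in regulatory cells.

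**Figure D1:**
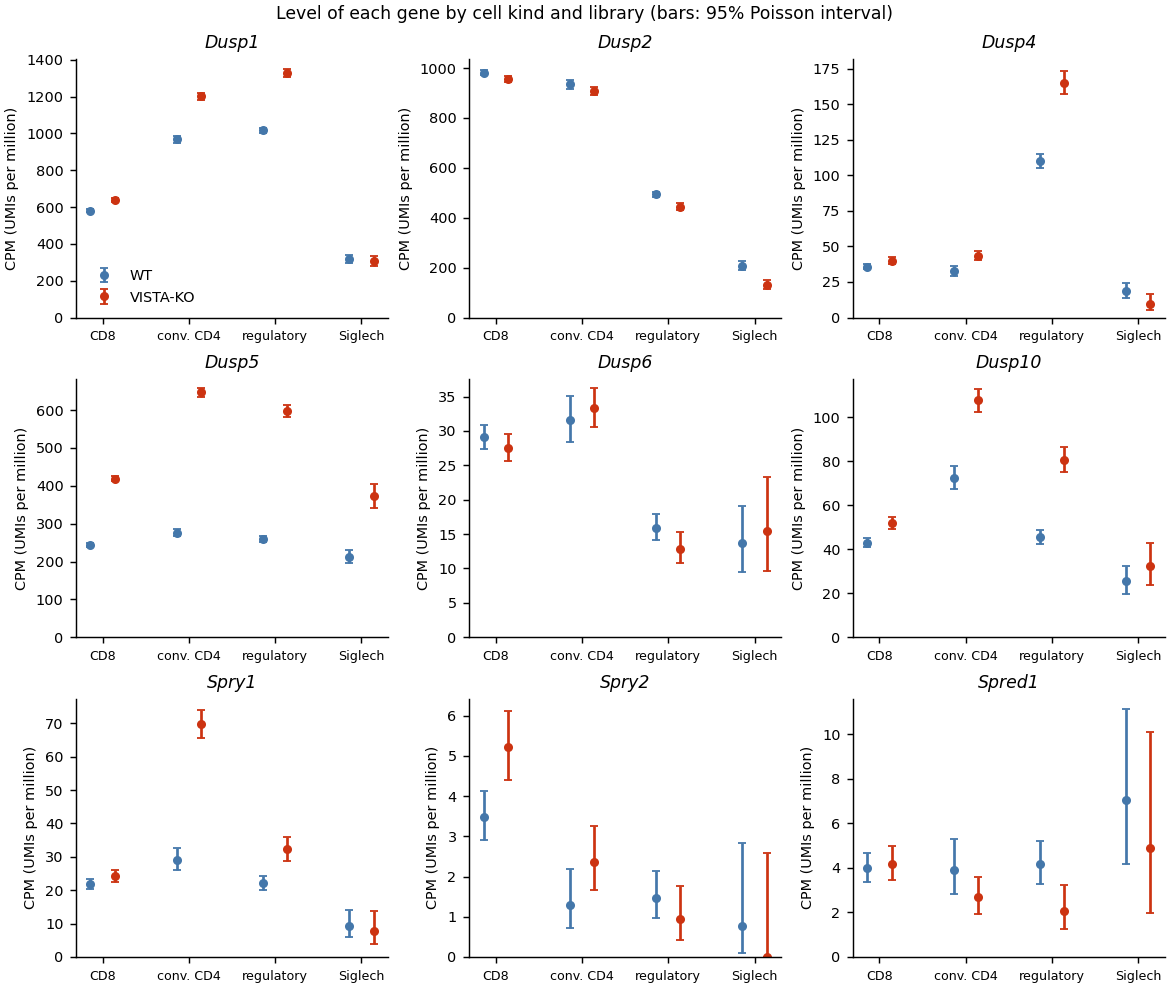
Level of each of the 9 genes (vertical axis, CPM) in the 4 cell kinds (horizontal axis) of the WT library (blue) and the VISTA-KO library (red), with 95% Poisson intervals as bars. Dusp5 is the gene whose 4 VISTA-KO levels, from 372 to 647 CPM, all lie above its 4 WT levels, from 212 to 276 CPM.

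Dusp10 was higher in VISTA-KO conventional CD4 and regulatory cells. Its product preferentially dephosphorylates JNK and p38 rather than ERK. In CD8 cells Dusp10 stood at 43.0 CPM in WT against 51.8 CPM in VISTA-KO (ratio 1.21, 1.12 to 1.30). Conventional CD4 cells held 72.4 and 108 CPM (ratio 1.49, 1.36 to 1.62). In regulatory cells it stood at 45.6 and 80.5 CPM (ratio 1.77, 1.60 to 1.95). In Siglech cells, at 25.4 and 32.2 CPM, the intervals of the libraries overlapped. The log2 ratio after adding 5 CPM to each level was 0.54 in conventional CD4 cells, just above the size of 0.5 used to count genes, 0.47 once Siglech cells were left out and 0.43 with the stricter gates.

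Dusp4 had its highest levels in regulatory cells and was higher there in VISTA-KO. It encodes a nuclear phosphatase of ERK and JNK. Regulatory cells stood at 110 CPM in WT against 165 CPM in VISTA-KO (ratio 1.50, 1.41 to 1.61). Conventional CD4 cells stood at 32.4 and 43.5 CPM (ratio 1.34, 1.18 to 1.53), and CD8 cells at 35.8 and 40.0 CPM (ratio 1.12, 1.03 to 1.21). Siglech cells stood at 18.4 and 9.79 CPM (ratio 0.533, 0.271 to 0.985), and at 11.0 and 10.6 CPM (ratio 0.967, 0.460 to 1.96) without cells that held 2 beta chains or the most UMIs. The regulatory difference moved with the gate. Among regulatory cells free of Cd8a and Cd8b1 UMIs, 734 in WT and 895 in VISTA-KO, Dusp4 stood at 153 and 183 CPM, a ratio of 1.20 (1.09 to 1.32) and a log2 ratio of 0.25. The share of regulatory cells with a Dusp4 UMI was 19.6% in WT and 29.0% in VISTA-KO after thinning to 2000 UMIs, but 56.1% and 56.5% without thinning.

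Dusp1 was moderately higher in the VISTA-KO T cells. It encodes a nuclear phosphatase of p38, JNK and ERK and is an immediate-early gene that also responds to stress and to tissue dissociation. In CD8 cells Dusp1 stood at 580 and 639 CPM (ratio 1.10, 1.08 to 1.12). In conventional CD4 cells it stood at 968 and 1201 CPM (ratio 1.24, 1.21 to 1.27), and in regulatory cells at 1016 and 1327 CPM (ratio 1.31, 1.28 to 1.34). In Siglech cells the levels of 318 and 305 CPM could not be told apart by their intervals. None of these log2 ratios reached 0.5. With the stricter gates the ratio was 1.08 in conventional CD4 and 1.10 in regulatory cells. A list of 12 heat shock and dissociation genes had median log2 ratios of 0.09 in CD8, -0.01 in conventional CD4, -0.16 in regulatory and -0.17 in Siglech cells. Its summed level was 6898 CPM in WT against 6656 CPM in VISTA-KO CD8 cells and lower in VISTA-KO in the other 3 kinds too. Most of its genes encode heat shock proteins, and Hspa8 alone stood at 2617 and 2400 CPM in CD8 cells. Immediate-early genes such as Jun and Junb were counted in another list, given below. The part of dissociation in the Dusp1 levels was not tested.

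Dusp2 did not follow the pattern of Dusp5. Its product, also called PAC-1, is a nuclear phosphatase found mainly in lymphoid cells. In CD8 cells Dusp2 stood at 982 CPM in WT against 956 CPM in VISTA-KO (ratio 0.974, 0.959 to 0.989). In conventional CD4 cells it stood at 936 and 908 CPM, and in regulatory cells at 494 and 444 CPM (ratio 0.901, 0.868 to 0.934). In Siglech cells it stood at 206 and 131 CPM, a ratio of 0.634 (0.534 to 0.750). In the Siglech cells the T cell markers were also lower in VISTA-KO, at 1260 against 631 CPM. Among Siglech cells without a Cd3e UMI, Dusp2 stood at 17.5 and 16.3 CPM, a ratio of 0.930 (0.446 to 1.89). The direction in the T cells depended on the cells included. With the most expanded clonotype removed from both libraries the ratio in CD8 cells was 1.05, and with the stricter gates it was 0.845 in conventional CD4 and 1.13 in regulatory cells.

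Dusp6 stood apart from Dusp5, although both products act on ERK, that of Dusp6 in the cytoplasm. Dusp6 stood at 29.1 and 27.5 CPM in CD8 cells, 31.6 and 33.3 CPM in conventional CD4 cells, 16.0 and 12.9 CPM in regulatory cells, and 13.7 and 15.4 CPM in Siglech cells. In each of the 4 kinds the intervals of the libraries overlapped. In regulatory cells Dusp6 was under 20 CPM in both libraries, with a ratio of 0.808 (0.649 to 1.00) as gated. It was lower in VISTA-KO in 5 of 5 states, each with an interval that included 1. It was also lower under all 13 alternatives, which reuse the same cells, and past a log2 ratio of -0.5 in 2 of them. The lowest of these, with all doubtful cells removed together, was chosen after the data had been seen. Its ratio was 0.438 (0.243 to 0.764), at 11.4 and 4.97 CPM. CD8 cells with Pdcd1 and Tcf7 also held less Dusp6 in VISTA-KO, at 31.8 and 20.5 CPM (ratio 0.645, 0.472 to 0.872), while 3 of the 8 CD8 states held more.

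Spry1 was higher in VISTA-KO conventional CD4 cells. It encodes a Sprouty protein that restrains Ras and Raf activation. In conventional CD4 cells Spry1 stood at 29.1 CPM in WT against 69.7 CPM in VISTA-KO (ratio 2.40, 2.11 to 2.73), and the ratio was 2.29 without Siglech cells and 2.41 with the stricter gates. In regulatory cells it stood at 22.1 and 32.2 CPM (ratio 1.46, 1.25 to 1.70). In CD8 cells the levels of 21.9 and 24.1 CPM gave a ratio of 1.10 (0.994 to 1.22). In Siglech cells Spry1 stood at 9.37 and 7.69 CPM. The 2 remaining inhibitors were scarce. Spry2 lay between 0.94 and 5.21 CPM in the T cell kinds, with its highest level in VISTA-KO CD8 cells against 3.47 CPM in WT CD8 cells (ratio 1.50, 1.18 to 1.91). Spred1, which brings the Ras inactivator neurofibromin to the membrane, lay between 2.08 and 7.03 CPM in all 8 groups. In regulatory cells Spred1 was lower in VISTA-KO, at 4.15 and 2.08 CPM (ratio 0.501, 0.290 to 0.828). The regulatory states held few Spred1 UMIs, with 0 in WT and 1 in VISTA-KO in the Il1rl1 state. The ratio intervals of the other regulatory states all included 1. In Siglech cells 2 Spry2 UMIs were counted in WT and 0 in VISTA-KO, which allows up to 2.10 CPM there at a limit of 3 counts, or 2.58 CPM by the exact interval.

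Set beside all genes with at least 20 CPM in 1 library, the members stood toward the higher side in VISTA-KO T cells. In CD8 cells 1 of the 7 members that passed this filter, Dusp5, had a log2 ratio above 0.5, as did 1.08% of 6083 genes, and none lay below -0.5 (0.69%). In conventional CD4 cells 3 of 7 did, Dusp5, Dusp10 and Spry1, against 1.5% of 6336 genes, and none lay below (2.75%). In regulatory cells 3 of 6 did, Dusp4, Dusp5 and Dusp10, against 2.83% of 6281 genes, and none lay below (2.5%). In Siglech cells Dusp5 lay above 0.5 (3.73% of 6405 genes) and Dusp2 below -0.5 (5.31%), of 4 members that passed. Over all 9 members the median log2 ratio was 0.14 in CD8, 0.31 in conventional CD4, 0.38 in regulatory and -0.18 in Siglech cells, where the median of all genes tested was -0.02, -0.04, -0.01 and -0.02. Over the members at 20 CPM or more, the filter the other genes passed, the medians were 0.14, 0.37, 0.51 and 0.12, so that the sign in Siglech cells depended on the scarce members. Dusp5 lay above 99.5% of the genes tested in CD8 cells, 99.8% in conventional CD4 cells, 99.6% in regulatory cells and 99.4% in Siglech cells. With the stricter gates 2 members lay above 0.5 in conventional CD4 cells, Dusp5 and Spry1, as did 1.37% of all genes. In regulatory cells 2 did, Dusp5 and Dusp10 (3.18%). None lay below -0.5 in either kind (2.65% and 2.68%).

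**Figure D2:**
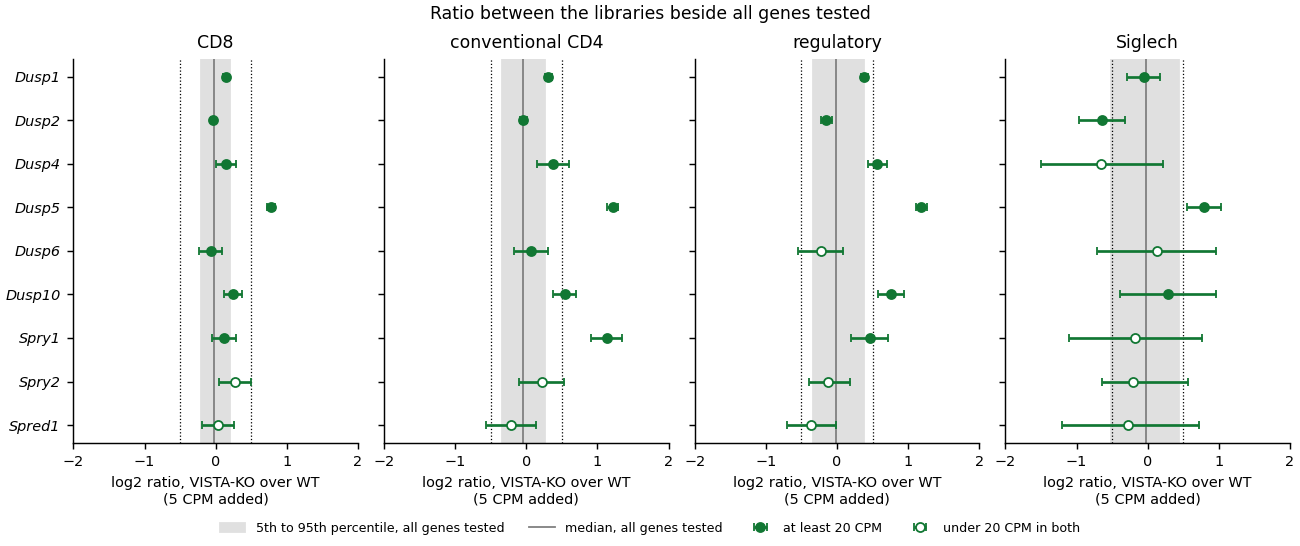
Log2 ratio of VISTA-KO over WT (horizontal axis, after adding 5 CPM) for the 9 genes in each cell kind, with intervals combined from the Poisson intervals of both libraries, the median of all genes tested as a gray line, their 5th to 95th percentiles as a gray band and dotted lines at -0.5 and 0.5. Filled circles have at least 20 CPM in 1 library, and Dusp5 lies beyond 0.5 in all 4 panels.

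Some members also differed between the kinds of cells within each library. Compared with CD8 cells, Dusp4 in regulatory cells was 3.07-fold higher in WT (2.86 to 3.29) and 4.12-fold higher in VISTA-KO (3.82 to 4.45). With the gates as worded it was the only member past a log2 ratio of 1 in both libraries there, a size that 2.27% of 6518 genes passed upward and 0.752% downward. With the stricter gates 4 members passed, Dusp1 and Dusp4 upward (3.79% of 6646 genes) and Dusp2 and Dusp6 downward (1.97%). Dusp4 was then 4.95-fold (4.51 to 5.44) and 5.13-fold (4.69 to 5.61) its CD8 level. Dusp1 moved from 1.75-fold to 2.48-fold in WT and from 2.08-fold to 2.38-fold in VISTA-KO.

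Dusp2 went the other way in regulatory cells, at 0.502 (0.491 to 0.514) of its CD8 level in WT and 0.465 (0.450 to 0.480) in VISTA-KO. With the stricter gates it stood at 0.321 (0.305 to 0.337) and 0.380 (0.363 to 0.398), and the order of the libraries turned. Dusp6 was at 0.548 and 0.469 of its CD8 level as gated, and at 0.417 (0.319 to 0.536) and 0.327 (0.241 to 0.434) with the stricter gates.

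Conventional CD4 cells had no member past that size with the gates as worded, where 0.998% of 6515 genes passed upward and 0.292% downward. With the stricter gates Dusp1 passed, at log2 ratios of 1.22 in WT and 1.12 in VISTA-KO, as did 1.71% of 6599 genes, and none passed downward (1.52%). As gated, Spry1 stood at a log2 ratio over CD8 cells of 0.34 in WT and 1.36 in VISTA-KO, and Dusp10 at 0.69 and 0.99. With the stricter gates Spry1 stood at 0.50 in WT and 1.60 in VISTA-KO, and Dusp10 at 0.96 and 1.15.

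In Siglech cells Dusp2 was at 0.210 (0.192 to 0.229) of its CD8 level in WT and 0.137 (0.118 to 0.158) in VISTA-KO. It was the only member past -1 in both libraries with the gates as worded, as were 6.9% of 7041 genes, and no member was past 1 (11.5%). Among Siglech cells without Cd3e, 5 members were past -1, Dusp1, Dusp2, Dusp4, Dusp10 and Spry1 (11.9% of 7211 genes), and none past 1 (13.6%). Dusp1 stood there at 66.6 and 70.5 CPM, against 318 and 305 CPM with all Siglech cells. Dusp5 stayed closer to its CD8 level, at 0.874 (0.800 to 0.953) for WT, 0.887 (0.812 to 0.968) for VISTA-KO as gated, and at 0.858 (0.753 to 0.974) and 0.804 (0.716 to 0.901) without Cd3e. The part of T cell RNA in the levels of this gate was not tested.

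Division into states showed where in each kind the members were expressed. A cell entered the first state it met, in the order in which the states stand here. CD8 cells were split by Mki67, by Pdcd1 with Tcf7, Pdcd1 with Havcr2, other Pdcd1, Ccr7, Il7r, and Cx3cr1 or S1pr5, with a rest. Conventional CD4 cells were split by Mki67, Cxcr5 or Il21, Cxcr6 and Ccr7, and regulatory cells by Mki67, Itgae, Il1rl1 and Ccr7, each with a rest. States share their library, so they are not replicates. They were formed within the gates as worded, and none was read with the stricter gates. Dividing regulatory cells were deeper in WT, at a median of 16486.5 against 8803 UMIs in VISTA-KO.

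Dusp5 was higher in VISTA-KO in 8 of 8 CD8, 5 of 5 conventional CD4 and 5 of 5 regulatory states. The ratios ran from 1.64 to 2.26 in CD8 states, from 2.10 to 2.46 in conventional CD4 states and from 1.92 to 2.36 in regulatory states. Within CD8 cells the level was lowest with Ccr7, at 137 CPM in WT against 225 CPM in VISTA-KO, and highest with Cx3cr1 or S1pr5, at 377 and 677 CPM. The largest CD8 ratio, 2.26 (2.04 to 2.50), was that of Il7r cells, at 214 and 483 CPM. Among conventional CD4 cells the Cxcr6 state was highest, at 307 and 754 CPM. In WT its interval overlapped that of the rest, at 295 CPM.

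Among CD8 and conventional CD4 states Dusp10 was highest with Ccr7, a receptor of naive and central memory cells. In WT the intervals of these Ccr7 states overlapped those of some other states of their kind. Conventional CD4 cells with Ccr7, 122 in WT and 343 in VISTA-KO, stood at 132 and 301 CPM, a ratio of 2.28 (1.76 to 2.98). CD8 cells with Ccr7 stood at 64.2 and 103 CPM (ratio 1.61, 1.30 to 2.00), and regulatory cells with Ccr7 at 50.6 and 138 CPM (ratio 2.73, 1.89 to 3.99). In the Cxcr6 state, which held most conventional CD4 cells, the levels were 71.3 and 83.4 CPM (ratio 1.17, 1.03 to 1.33). The difference in Dusp10 was thus smaller in that state than in the Ccr7 state by intervals that do not overlap.

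Dusp4 was highest in the CD8 cells with Pdcd1 and Havcr2, the receptors of chronically stimulated cells, at 56.1 and 62.5 CPM with overlapping intervals. Dusp4 in WT dividing CD8 cells, at 48.5 CPM, had an interval that overlapped that of the WT cells of this state. It was low in WT CD8 cells with Ccr7 or Il7r, at 8.68 and 10.3 CPM. VISTA-KO cells of these states stood at 21.2 CPM (ratio 2.44, 1.40 to 4.44) and 29.0 CPM (ratio 2.81, 1.77 to 4.59). WT cells with Cx3cr1 or S1pr5 were as low, at 9.54 CPM. There the VISTA-KO level was 13.9 CPM, and the ratio of 1.46 had an interval that included 1 (0.510 to 3.99). In regulatory cells Dusp4 was higher in VISTA-KO in 5 of 5 states of the gates as worded, with ratios from 1.21 to 1.66. Over all regulatory cells the ratio of 1.50 fell to 1.20 with the stricter gates. The Dusp4 level was highest with Il1rl1, at 156 and 202 CPM in 25 and 65 cells. Its intervals there overlapped those of other regulatory states.

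Within CD8 cells Dusp2 was highest with Cx3cr1 or S1pr5, markers of effector cells, at 1955 and 1715 CPM. Its lowest CD8 level was 539 CPM in WT, in dividing cells, and 677 CPM in VISTA-KO, in Ccr7 cells. Dividing VISTA-KO CD8 cells stood at 680 CPM, with an interval that overlapped that of the Ccr7 cells. Among conventional CD4 states Dusp2 was lowest with Ccr7, at 483 and 320 CPM. Spry1 was higher in VISTA-KO in 5 of 5 conventional CD4 states, with ratios from 1.27 to 3.68, and in 4 of 8 CD8 states. The lowest of these conventional CD4 ratios, in dividing cells, had an interval that included 1 (0.921 to 1.75). The highest, with Cxcr5 or Il21, rested on 6 UMIs in WT and 31 in VISTA-KO (1.51 to 10.8). Dusp1 was higher in VISTA-KO in 6 of 8 CD8, 4 of 5 conventional CD4 and 5 of 5 regulatory states. The exceptions in Dusp1 were dividing CD8 cells, CD8 cells with Pdcd1 and Havcr2 (ratio 0.879, 0.830 to 0.930) and the small Cxcr5 or Il21 state of 36 and 54 cells (ratio 0.722, 0.619 to 0.842).

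**Figure D3:**
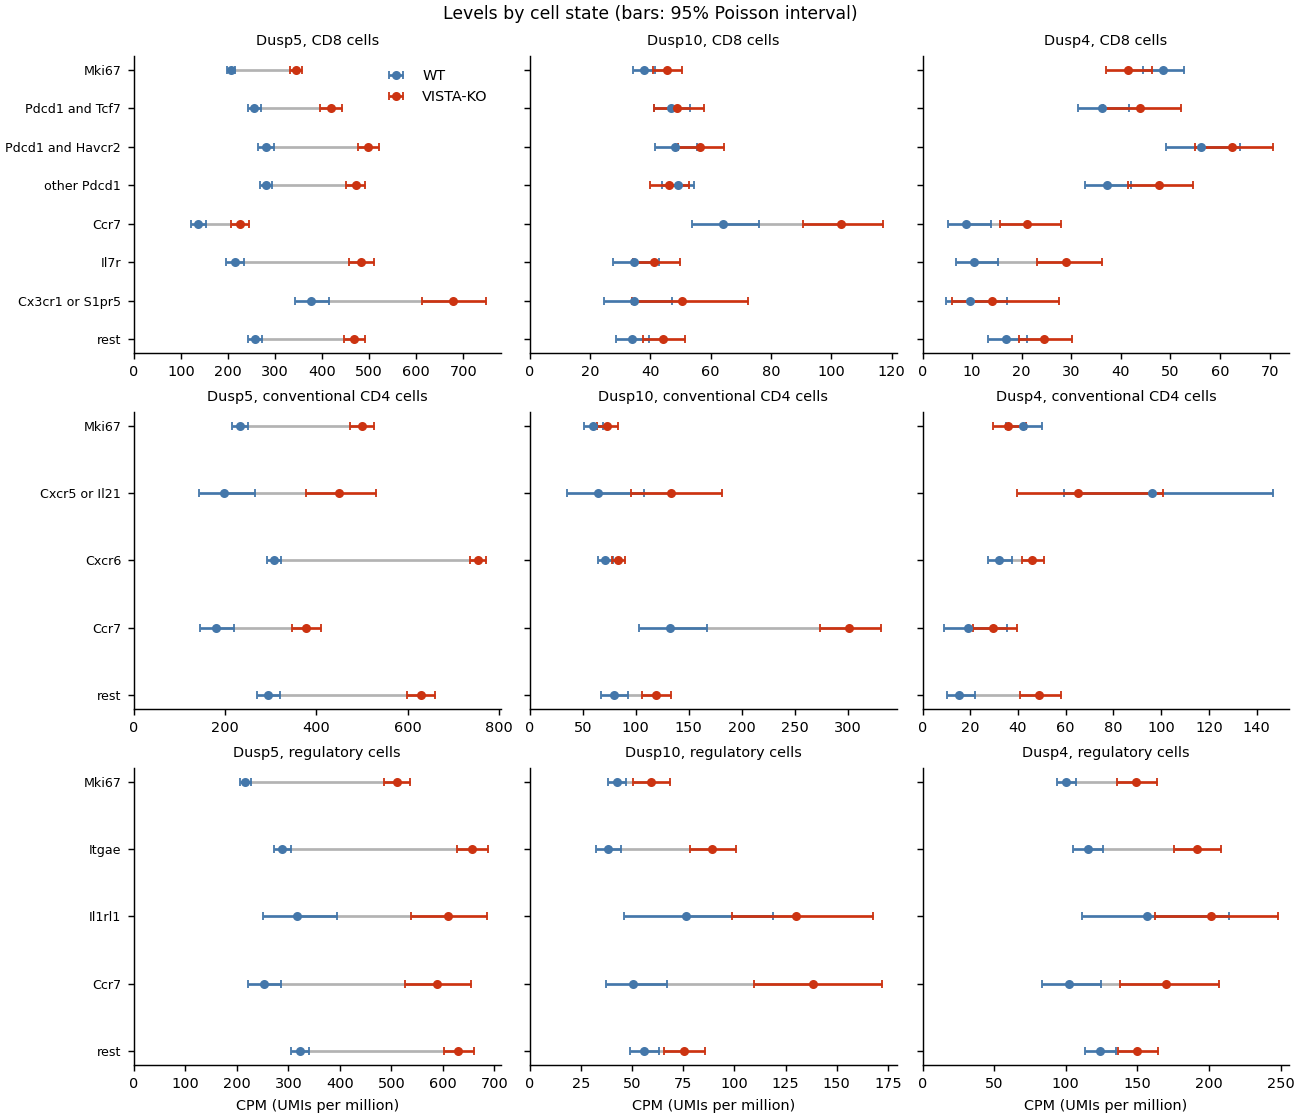
Levels of Dusp5, Dusp10 and Dusp4 (horizontal axes, CPM) in the states of CD8, conventional CD4 and regulatory cells (rows) in WT (blue) and VISTA-KO (red), with 95% Poisson intervals as bars and a gray line joining the libraries. Dusp5 is higher in VISTA-KO in all 18 states, and Dusp10 reaches 301 CPM in VISTA-KO conventional CD4 cells with Ccr7.

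Expanded clonotypes, cells that share the same alpha and beta chain, set some of the CD8 levels. Of the clonotypes with at least 50 CD8 cells, WT had 5 and VISTA-KO 3, and the largest took up 1034 WT and 291 VISTA-KO CD8 cells, or 18.6% and 6.69%. Dusp5 lay between 189 and 335 CPM in the 5 WT clonotypes and between 431 and 512 CPM in the 3 VISTA-KO clonotypes, without overlap, and stood at 233 and 411 CPM in all other CD8 cells. Clonotypes of 1 library share its pool and are not replicates of a genotype.

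Spry1 in WT CD8 cells rested in large part on that largest clonotype. It stood at 67.6 CPM in those cells and at 14.1 CPM in WT CD8 cells outside the 5 clonotypes, against 26.9 CPM in the corresponding VISTA-KO cells. With the top clonotype of both libraries removed, Spry1 in CD8 cells was 14.9 CPM in WT against 25.7 CPM in VISTA-KO (ratio 1.73, 1.54 to 1.95). Then 2 members lay above a log2 ratio of 0.5 in CD8 cells, Dusp5 and Spry1, as did 1.2% of all genes tested. None lay below -0.5 (0.852%). Dusp2 also differed among clonotypes of the same library, from 423 to 2631 CPM in WT and from 414 to 1193 CPM in VISTA-KO. Dusp6 lay between 29.3 and 36.6 CPM in the WT clonotypes and between 20.1 and 27.8 CPM in the VISTA-KO clonotypes. Outside these clonotypes its levels were nearly equal, with 27.3 (WT) against 27.8 CPM (VISTA-KO). The clonotype with the fewest UMIs, a WT one, held 259586 over all genes. No intervals are given for the Dusp6 ranges, and their difference was not tested.

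**Figure D4:**
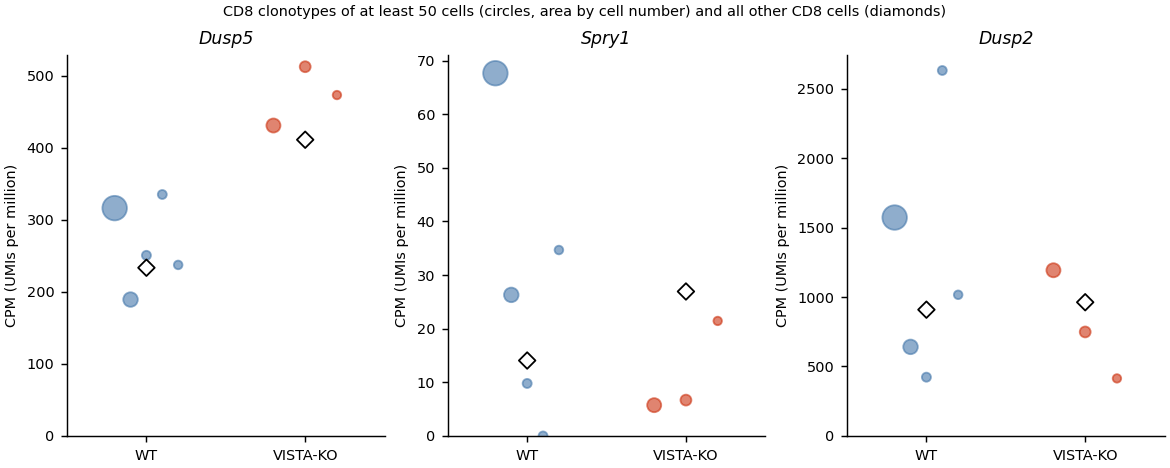
Levels of Dusp5, Spry1 and Dusp2 (vertical axes, CPM) in CD8 clonotypes of at least 50 cells (circles, area by cell number) and in all other CD8 cells (diamonds) of each library. The WT clonotypes lie below the VISTA-KO clonotypes for Dusp5, and the largest WT clonotype stands at 67.6 CPM for Spry1.

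The genes whose levels were most like each member over the 8 groups of kind and library were sought among 7358 genes by the correlation of log2(CPM + 5). The groups share 2 libraries, most Siglech cells also stand in a T cell kind, and the correlations are a description. The named genes were picked as the highest of 7358 over 8 groups, so a high r is no finding in itself. Dusp5 was followed most closely by Nr4a1 (r = 0.990), an immediate-early nuclear receptor gene induced by T cell receptor signals, then by Kdm6b, a histone demethylase (r = 0.978), and Tgif2 (r = 0.972). Nr4a1 stood at 127 CPM in WT against 370 CPM in VISTA-KO CD8 cells (ratio 2.90, 2.81 to 3.01), and at ratios of 4.38 (4.17 to 4.60) in conventional CD4, 4.11 (3.95 to 4.28) in regulatory and 2.78 (2.37 to 3.27) in Siglech cells. Kdm6b had ratios of 1.46, 2.05, 2.29 and 1.48 in the same order. The cause of these differences was not tested, and 1 pool per genotype cannot separate genotype from the handling of the pools. The genes most like Dusp4 were Ephx1, Ctla4 and Tnfrsf1b (r from 0.989 to 0.994), the last 2 being known for high expression in regulatory T cells. Those most like Dusp2 were Cd226 (r = 0.999), an activating receptor, Prkacb and Sytl3. Axin2, a target of Wnt signaling, was among the 3 most like Dusp10 (r = 0.988), and S1pr1, which lets lymphocytes leave tissue, among those most like Spry1 (r = 0.982). Dock2 and Ccnd2 led for Dusp1 (r = 0.993 and 0.991), and Rnf166 for Dusp6 (r = 0.979).

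**Figure D5:**
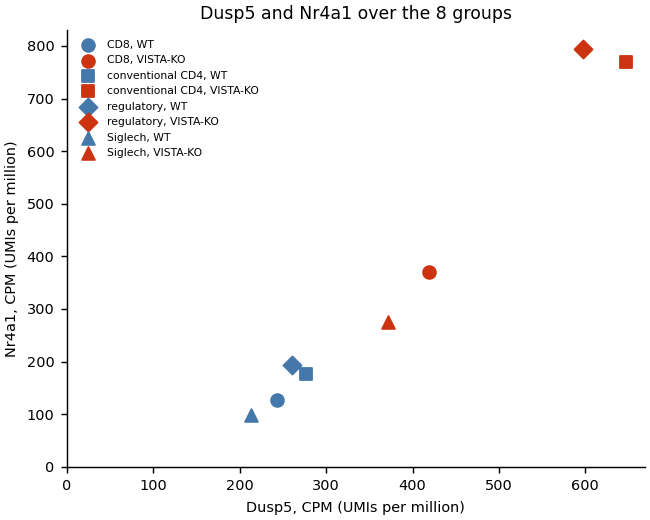
Dusp5 (horizontal axis, CPM) and Nr4a1 (vertical axis, CPM) in the 8 groups of cell kind (symbols) and library (WT blue, VISTA-KO red). The 4 VISTA-KO points, from 275 to 795 CPM of Nr4a1, lie above and to the right of the 4 WT points.

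Cell by cell within CD8 cells, the correlations between members were low. Over CD8 cells thinned to 2000 UMIs, 5259 in WT and 4164 in VISTA-KO, the largest correlation between 2 members was that of Dusp2 with Dusp5, at 0.15 in WT and 0.12 in VISTA-KO. Of the pairs with genes of the pathway lists, the only ones at 0.2 or more in both libraries were those of Dusp1 with Fos (0.20 and 0.21), Junb (0.22 and 0.24) and Jund (0.21 and 0.24). Most members were seen in few of these cells, Dusp10 in 8.23% in WT and 9.03% in VISTA-KO, and Spry2 in 0.532% and 0.985%. Such weak correlations in sparse counts are no finding in themselves. They cannot show whether the scarcer members move together, since sparse counts keep them low.

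Of the rest of the pathway, a list of targets of ERK and calcium signals had medians above those of the cascade itself in each kind. Most of these genes encode transcription factors, among them Elk1 and Srf, and the list also holds Ier3 and Phlda1. Of its 20 genes, 15 passed the filter in CD8 cells and 3 of them lay above a log2 ratio of 0.5, Ier2 (0.62), Fosl2 (0.55) and Junb (0.52), with none below -0.5. Jun, at 359 and 280 CPM, was lower in VISTA-KO CD8 cells (ratio 0.780, 0.758 to 0.802). In conventional CD4 cells 5 of 14 lay above and 1, Myc, below. In regulatory cells 8 of 14 lay above and none below, with Junb at 1543 and 3594 CPM (ratio 2.33, 2.29 to 2.37). In Siglech cells 2 of 14 lay above and 2 below. The medians of this list were 0.28, 0.39, 0.63 and 0.16. Of all genes tested in CD8, conventional CD4, regulatory and Siglech cells, 1.08%, 1.5%, 2.83% and 3.73% lay above 0.5. Below -0.5 lay 0.69%, 2.75%, 2.5% and 5.31%. The lists were read with the gates as worded only.

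Of 18 genes of the cascade from Ras to ERK, 13 passed the filter, and none lay past 0.5 in CD8 or conventional CD4 cells and 1 in regulatory and in Siglech cells. Their medians ran from -0.05 to 0.07. Rasgrp1, which loads Ras with GTP below the T cell receptor, was the highest of them in CD8 cells, at 98.3 and 123 CPM (ratio 1.25, 1.19 to 1.31). Of 15 genes of the JNK and p38 cascade 9 to 11 passed the filter, and of 8 Ras GTPase activators 4, and none of these lay past 0.5 in any kind. Of 9 atypical phosphatases 2 passed the filter in CD8 cells and 3 in the other kinds, with none past 0.5, among them Dusp11 in CD8 cells at 160 and 148 CPM. Of the other classical MAP kinase phosphatases, Dusp7, Dusp8, Dusp9 and Dusp16, none reached 20 CPM in CD8 cells, and Dusp7 was past -0.5 in Siglech cells, at 43.4 and 27.3 CPM. Spry3, Spry4, Spred2 and Spred3 stayed under 20 CPM in all kinds. These lists were written with earlier results of these data known, and their counts are a description.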

How the data were processed

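Gene expression and T cell receptors were read from 1 pool of mice per genotype. The authors aligned reads with Cell Ranger (5.0.0 per the file headers) to mouse GRCm38 and deposited unnormalized UMI counts of every gene in every barcode, with UMI counts per receptor contig. Labels and methods disagree on whether the kit read 3′ or 5′ ends, which shifts where in a gene the reads lie.

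Cells were kept at 600 genes or more and under 30% mitochondrial UMIs. UMIs were summed per library and cell kind, scaled to CPM, and compared as log2 ratios after adding 5 CPM, which understates differences of scarce genes. Genes with at least 20 CPM in 1 library were counted past 0.5. Intervals are exact Poisson, binomial-split or Clopper-Pearson. For shares, cells were thinned to 2000 UMIs, which left out 290 WT and 186 VISTA-KO CD8 cells. Clonotypes were the V gene and junction of the alpha and beta chain with most UMIs. Doublets were kept, and removed in an alternative. With 1 library per genotype nothing was tested. Scripts were tested on simulated data. Python 3.11.15, numpy 2.4.6, scipy 1.17.1, pandas 2.3.3 and matplotlib 3.10.9 were used.

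The members, gene lists and rules were chosen with earlier results of these data known. Named were all 9 members, Vsir, up to 3 list genes per direction in CD8 cells, the 3 genes most like each member, and pairs correlated at 0.2 or more in both libraries. Other list genes named were chosen after their values were seen.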

Additional observations from a re-analysis of the deposited data

How the results depend on the processing

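Dusp5 stayed past a log2 ratio of 0.5 in all 4 kinds under every alternative run, and no member's call reversed. With 1 library per genotype no replicate could be left out. No paired analysis was possible because each genotype has 1 library and nothing was tested. The median of the 9 members moved with the cells included, and the cause was not tested. It was 0.18, 0.11 and 0.17 in CD8, conventional CD4 and regulatory cells with the stricter gates, 0.28, 0.17 and 0.23 as a mean of single-cell CPM, 0.21, 0.25 and 0.23 without Mki67 cells, and 0.26, 0.15 and 0.21 after thinning. In conventional CD4 cells it was 0.41 with 1 CPM added, 0.24 without Siglech cells and 0.21 without cells holding myeloid or melanoma UMIs, which gave 0.32 in regulatory cells. Without cells of 2 beta chains or the most UMIs it was 0.097 in CD8 and 0.33 in regulatory cells, and with all exclusions together, chosen after seeing the data, 0.17 in regulatory cells.

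In Siglech cells 2 members were lower in VISTA-KO, Dusp2 and Dusp4, with totals without mitochondrial, ribosomal and receptor genes and with no filter on low values, and 0 with the stricter gates, the mean of single-cell CPM and all exclusions. Of all genes in Siglech cells, 6.57% and 6.5% were lower in the settings with 2 such members, and 4.49% to 5.79% in those with 0. In those cells 2 members were higher without Mki67 cells (Dusp5, Dusp10, with 3.54% of all genes) and after thinning (Dusp1, Dusp5, with 14.7%). After thinning 16.3% of all genes were lower. The main settings gave 3.73% higher and 5.31% lower, so the count after thinning stands against a wider spread of all genes. In CD8 cells 2 were higher without the largest clonotype, Dusp5 and Spry1 (1.2% of all genes). In conventional CD4 cells 2 were higher, Dusp5 and Spry1, with the stricter gates and without Siglech cells (1.37% and 1.41% of all genes). The same 2 were higher without cells holding myeloid or melanoma UMIs and with all exclusions (1.27% and 1.58%). In regulatory cells 2 were higher, Dusp5 and Dusp10, with the stricter gates and all exclusions (3.18% and 3.77%). The other settings gave 3 or 4 in these kinds. The intervals of most neighbouring groups overlapped for Spry2 and Spred1 at this depth. Log2 ratios over CD8 cells moved beyond their interval in 169 values over all alternatives and stayed within it in 425, none reversing a direction past 1.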

Other observations

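Cells that met none of the gates, 1369 in WT and 1264 in VISTA-KO, held Cd3e at 1236 and 1148 CPM. Dusp5 stood there at 296 and 531 CPM, a ratio of 1.79 (1.69 to 1.91). Dusp4 stood at 44.3 and 83.1 CPM (ratio 1.88, 1.60 to 2.20) and Spry1 at 22.2 and 37.0 CPM (ratio 1.67, 1.33 to 2.10). Dusp2 was lower in VISTA-KO, at 839 and 638 CPM (ratio 0.760, 0.728 to 0.794), and the intervals of Dusp1, at 1655 and 1617 CPM, overlapped.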
